A study of Homo sapiens with 12 samples.

Results

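10 genes of the FOXO programme were followed across 4 treatments of a neuroblastoma cell line. They were the forkhead transcription factor genes FOXO1, FOXO3 and FOXO4, and 7 genes known from other systems as FOXO targets: HBP1, FBXO32, KLHL24, TXNIP, SESN3, YPEL3 and PIK3IP1. Members were found by gene name in GENCODE release 29 and are 10 of 58051 genes in the count table, and all 10 had enough counts to be among the 17774 genes tested.

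The cells were NB-1, an established human neuroblastoma line, and polyadenylated RNA was sequenced after 48 h. The DMSO group received solvent alone, the BEZ-235 group 0.5 µM of BEZ-235, the SAHA group 0.5 µM of SAHA, and the combination group both compounds at these doses. BEZ-235 (dactolisib) inhibits PI3K and mTOR kinases, and SAHA (vorinostat) inhibits histone deacetylases. Each group held 3 biological replicates of this 1 line, at 1 dose per drug and 1 time, and the question was which genes each drug and their combination changed.

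FOXO proteins are transcription factors that bind a short element with the core GTAAACA in promoters and enhancers. When growth factors activate PI3K, the kinase AKT phosphorylates FOXO proteins, and 14-3-3 proteins then hold them in the cytoplasm. When the pathway is blocked they enter the nucleus and raise genes of cell-cycle arrest, protein breakdown, stress resistance and feedback to the pathway itself. HBP1, an HMG-box transcription repressor that slows the cell cycle, is among these genes. FOXO control acts largely on the protein and its place in the cell, which RNA levels do not report.

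The FOXO core was searched on both strands in the RefSeq promoter windows of GRCh38.p14, each running from 250 bases before to 50 bases after an annotated start. Windows were matched by symbol for 9 of the 10 members, and FBXO32 was not matched. The core was found in 5 of these 9 genes, against 1145 of 27305 genes (4.19%) and 1202 of 35116 windows (3.42%). Of the wider list of FOXO target genes described further on, 3 of 31 held it (BCL2L11, MXI1 and TSC22D3). Letters in a window are a description and show no binding. The 5 matches are printed 5′ to 3′ on the strand of the gene with the core, or its reverse complement TGTTTAC, in capitals, because they show where each gene carries the element. HBP1 and TXNIP are shown over the 250 bases before their starts, and the other 3 as 30 bases around the match.
FOXO4, chrX:71095863-71095892, plus strand: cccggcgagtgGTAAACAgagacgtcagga
HBP1, chr7:107168753-107169002, plus strand: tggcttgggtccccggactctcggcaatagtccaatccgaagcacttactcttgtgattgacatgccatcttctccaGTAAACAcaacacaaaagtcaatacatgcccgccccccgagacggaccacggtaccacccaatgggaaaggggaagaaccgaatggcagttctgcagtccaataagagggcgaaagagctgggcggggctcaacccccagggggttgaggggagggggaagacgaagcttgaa
TXNIP, chr1:145996580-145996829, minus strand: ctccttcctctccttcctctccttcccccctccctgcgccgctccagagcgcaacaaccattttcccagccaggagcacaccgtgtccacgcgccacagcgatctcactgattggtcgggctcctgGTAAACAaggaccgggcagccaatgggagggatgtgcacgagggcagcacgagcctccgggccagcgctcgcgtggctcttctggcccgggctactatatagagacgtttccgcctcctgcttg
YPEL3, chr16:30096195-30096224, minus strand: ctgggctcggtGTAAACAagtccaggcgcc
PIK3IP1, chr22:31292454-31292483, minus strand: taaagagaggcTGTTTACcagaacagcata
The match began 173 bases before the start in HBP1 and 124 bases before it in TXNIP. In FOXO4, YPEL3 and PIK3IP1 it lay just after the start, from bases 24, 1 and 17. These positions count from the RefSeq start of the window, which can differ from the GENCODE gene ends given below. HBP1, TXNIP and PIK3IP1 each had another window, which held no match. The windows of FOXO1, FOXO3, KLHL24 and SESN3 held no match. The exact letters CACGTG of the E-box were in none of the 9 genes' windows, against 8.77% of genes and 7.26% of all windows. For 9 genes this is near the share of all genes, and other forms of the E-box were not searched.

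By GENCODE release 29 on GRCh38 the factors are FOXO1 (ENSG00000150907, chromosome 13, 40469953 to 40666597, minus strand), FOXO3 (ENSG00000118689, chromosome 6, 108559835 to 108684774, plus strand) and FOXO4 (ENSG00000184481, chromosome X, 71096197 to 71103535, plus strand). HBP1 (ENSG00000105856) lies on chromosome 7, 107168961 to 107202529, plus strand. FBXO32 (ENSG00000156804) lies on chromosome 8, 123497889 to 123541206, minus strand, and KLHL24 (ENSG00000114796) on chromosome 3, 183635568 to 183684477, plus strand. TXNIP (ENSG00000265972) lies on chromosome 1, 145992435 to 145996600, minus strand, and SESN3 (ENSG00000149212) on chromosome 11, 95165513 to 95232541, minus strand. YPEL3 (ENSG00000090238) lies on chromosome 16, 30092314 to 30096915, minus strand, and PIK3IP1 (ENSG00000100100) on chromosome 22, 31281593 to 31292534, minus strand. Counts were summed over each whole gene, so no exon, isoform or UTR was measured apart.

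The libraries held 17662944 to 79543539 counts, and the lowest count of any member in any library was 43, for FBXO32. All 13 markers of adrenergic neuroblastoma were over 1 CPM (counts scaled to the library total) in DMSO, and 12 of 13 in SAHA. Their sums were 6967 to 7526 CPM in DMSO and 6256 to 8550 CPM in the treated groups. ALK alone had means of 4265 CPM in DMSO and 3897 to 5039 in the treated groups, so the sums mostly follow ALK. Single markers moved both ways. TH was at means of 138 CPM in DMSO, 53.9 after BEZ-235, 38.6 after SAHA and 41.4 in the combination. CHGB was at 101, 166, 133 and 145 CPM in the same order. Fibroblast markers summed to 72.3 to 77.6 CPM in DMSO, 22.6 to 25.1 in BEZ-235, 381 to 428 in SAHA and 146 to 170 in the combination. The gene LUM was the largest part of these sums, with means of 60.7, 10.7, 328 and 94.6 CPM in the same order. The part of the fibroblast markers in the results was not tested. Schwann cell markers summed to at most 9.45 CPM with SOX10 at 0 in all 12 libraries, and leukocyte markers to at most 2.25 CPM. The combination libraries stood apart in GC content: over 14945 genes, the log2 deviation from the DMSO mean rose by 0.25, 0.39 and 0.50 per 10 points of GC, against slopes of -0.16 to 0.06 in the other 9 libraries. 6 members lie below the median GC content of tested genes (48.5%). Many values for the combination are therefore also given after a correction for GC content and length. Values printed without a corrected value are before the correction, which can change them too. The part of the GC slope in the results was not tested. In bulk RNA, fewer cells with a transcript and less transcript per cell cannot be told apart.

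**Figure D1:**
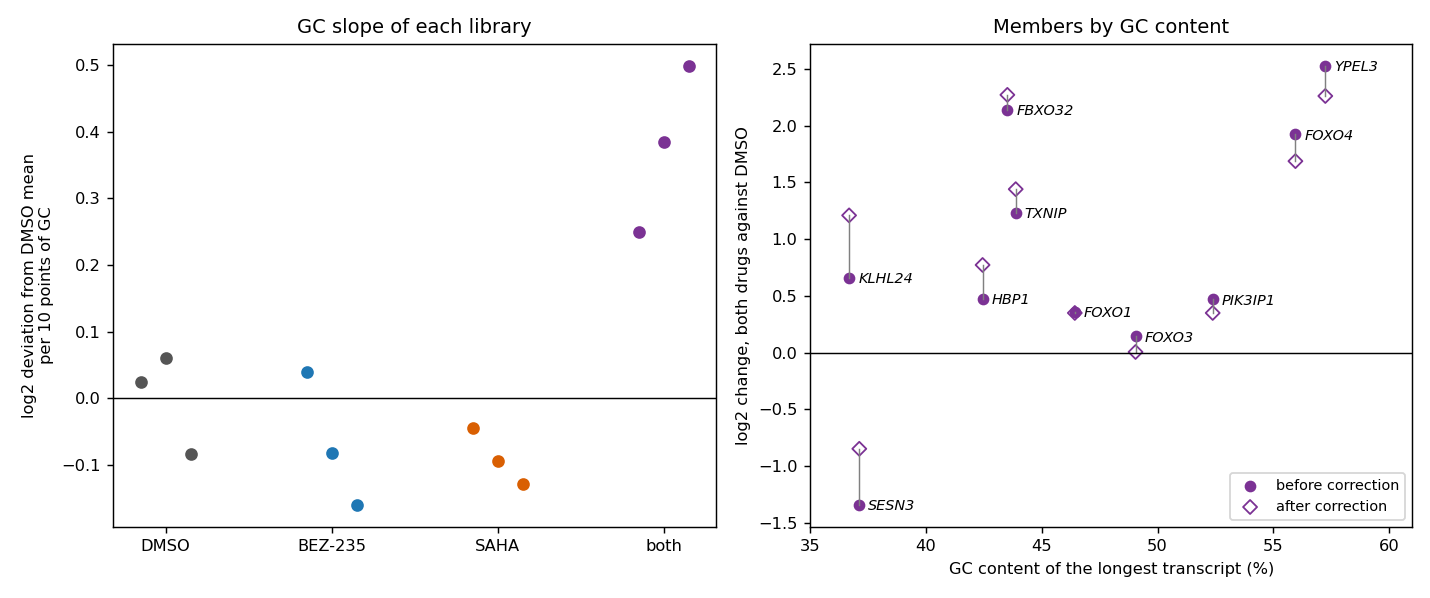
Left: the slope of each library's log2 deviation from the DMSO mean on gene GC content, per 10 points, by treatment group. Right: the log2 change of each member in the combination against DMSO over the GC content of its longest transcript, before (filled) and after (open) the correction. The 3 combination libraries lie at 0.25 to 0.50, above all others. The correction moved KLHL24, SESN3 (from -1.34 to -0.85), HBP1 and TXNIP up and YPEL3 and FOXO4 down.

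Each change is given as the log2 fold change ± its SE, from 3 libraries per group, and each p-value is a 2-sided, Benjamini-Hochberg adjusted edgeR quasi-likelihood value over all genes tested, with a threshold of 0.05. A gene is called where it passes that threshold. After BEZ-235 alone 8 of 10 members rose and none fell, where 50.9% of all tested genes were called, 25.5% higher and 25.4% lower, and the median change of the members was 0.76 against 0.02 over all genes. After SAHA alone 6 rose and none fell, where 43.1% of all genes were called, 22.2% higher and 20.9% lower, with a median of 0.30 against -0.01. With both drugs 8 rose and 1, SESN3, fell, where 64.4% of all genes were called, 33.2% higher and 31.2% lower, with a median of 0.57 against 0.03. These 3 comparisons share the DMSO libraries. Calls were thus common among all genes, and the sizes and the values in each library are given for each member. The members were chosen with earlier results of these data known, so their counts beside these shares are a description and no independent test.

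**Figure D2:**
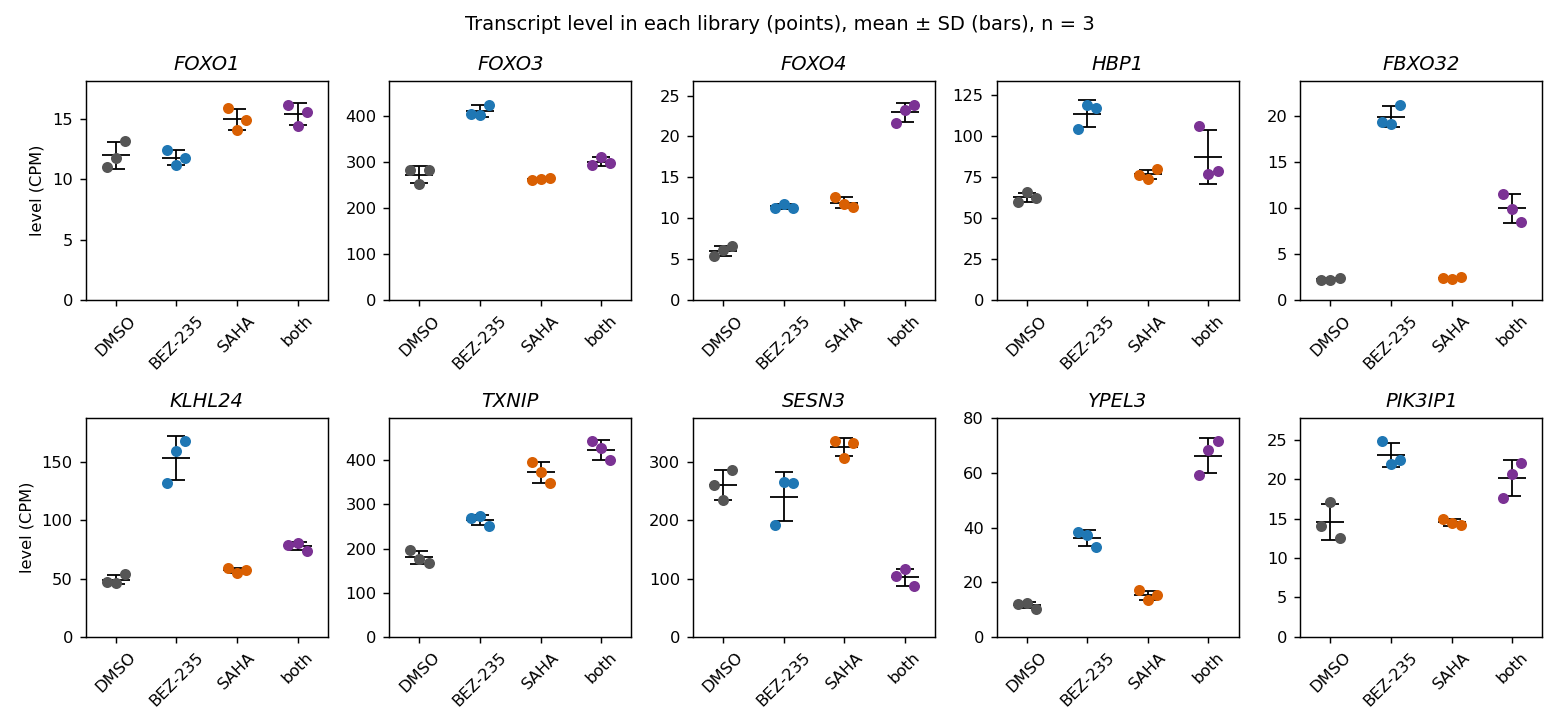
Level of each member in CPM (linear axis from 0) in the 12 libraries by treatment, with points for libraries and bars for mean ± SD, n = 3. FBXO32, KLHL24 and YPEL3 are above all DMSO libraries after BEZ-235, and SESN3 is below all other libraries in the combination.

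Among the factors, FOXO3 rose with BEZ-235, FOXO4 rose with each drug and most with both, and FOXO1 moved little. FOXO3, the most abundant of them, was at 283, 251 and 282 CPM in DMSO, at 403, 402 and 424 after BEZ-235, at 261, 262 and 265 after SAHA and at 292, 311 and 297 in the combination. The BEZ-235 libraries were above all others, the SAHA libraries lay within the DMSO range, and the combination libraries lay just above DMSO. FOXO3 changed by 0.59 ± 0.07 with BEZ-235 (adjusted p = 3.93e-06). Its change was -0.05 ± 0.07 with SAHA (adjusted p = 0.586) and 0.14 ± 0.07 with both (adjusted p = 0.0918), neither of which passed. FOXO3 was lower in the combination than with BEZ-235 alone by -0.45 (adjusted p = 5.1e-05). Its call against SAHA alone (0.19, adjusted p = 0.0274) was lost when any of 10 of the 12 libraries was left out, with log2 changes in those 10 of 0.14 to 0.20 and adjusted p up to 0.166. It held without DMSO replicate 2 and without combination replicate 1. It was also lost without the low-count filter (0.12, adjusted p = 0.425) and in a fit of only those groups (0.18, adjusted p = 0.0603). The call held after the GC and length correction (0.17, adjusted p = 0.0138). The corrected change with both drugs against DMSO was 0.005 (adjusted p = 0.946). The pseudogene copy FOXO3B was at mean levels of 3.22 CPM in DMSO, 5.69 after BEZ-235, 2.88 after SAHA and 5.91 in the combination, and estimated counts can divide reads between copies.

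FOXO4, a factor of the same family, was at 5.38, 6.12 and 6.63 CPM in DMSO, at 11.3, 11.8 and 11.3 after BEZ-235, at 12.6, 11.8 and 11.4 after SAHA and at 21.7, 23.2 and 23.9 in the combination. The 3 ranges of DMSO, single drugs and combination do not overlap. The change was 0.92 ± 0.11 with BEZ-235 (adjusted p = 4.21e-06), 0.97 ± 0.11 with SAHA (adjusted p = 2.8e-06) and 1.92 ± 0.11, or 3.79-fold, with both (adjusted p = 2.46e-10). After the GC correction the combination change was 1.69. The single log2 changes sum to 1.89, and to 1.96 after the correction.

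FOXO1 was at 11, 11.8 and 13.2 CPM in DMSO, at 12.4, 11.2 and 11.8 after BEZ-235, at 15.9, 14.1 and 14.9 after SAHA and at 16.2, 14.4 and 15.6 in the combination. The libraries with SAHA, alone or combined, lay above all DMSO and BEZ-235 libraries, and those 2 groups overlapped. The change was -0.02 ± 0.11 with BEZ-235 (adjusted p = 0.882, 95% interval -0.25 to 0.21), 0.32 ± 0.10 with SAHA (adjusted p = 0.0218) and 0.36 ± 0.11 with both (adjusted p = 0.00701). With DMSO replicate 1 left out the last value did not pass (0.28, adjusted p = 0.0522), nor without the filter on low counts (0.30, adjusted p = 0.0643). FOXO6, the family member expressed mainly in brain, was not a chosen member. Its mean level was 1.63 CPM in DMSO and 4.49 in the combination, where it rose by 1.46 ± 0.22 (adjusted p = 1.65e-05, 0.96 after the GC correction).

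HBP1 rose with BEZ-235 and less with SAHA, and the combination did not exceed BEZ-235 alone. It was at 59.8, 65.6 and 62.0 CPM in DMSO, at 104, 119 and 117 after BEZ-235, at 76.4, 73.7 and 79.5 after SAHA and at 106, 76.6 and 78.3 in the combination. The combination libraries disagree: replicate 1 lies with the BEZ-235 libraries and replicates 2 and 3 with the SAHA libraries. Replicate 1 also had the lowest GC slope of the 3, and HBP1 has a GC content of 42.45%. KLHL24, with a GC content of 36.69%, was at 79.2, 80.5 and 74.1 CPM in the same libraries. The part of the GC slope in the HBP1 spread was not tested. The change of HBP1 was 0.86 ± 0.10 with BEZ-235 (adjusted p = 4.26e-06), 0.29 ± 0.10 with SAHA (adjusted p = 0.0321) and 0.48 ± 0.10 with both (adjusted p = 0.000846). Without combination replicate 1 the last value was 0.30 (adjusted p = 0.00427), and after the GC correction with all libraries it was 0.77 ± 0.07 (adjusted p = 2.86e-08). Against BEZ-235 alone HBP1 was lower in the combination by -0.39 (adjusted p = 0.00423), but the libraries overlap and after the correction the value was -0.10 (adjusted p = 0.22). Against SAHA alone the difference was 0.18 (adjusted p = 0.143), 0.00 without combination replicate 1 and 0.51 after the correction (adjusted p = 6.72e-06). The gene COG5 on the opposite strand was at 49.3, 48.1, 57.8 and 43.6 CPM in DMSO, BEZ-235, SAHA and combination, and the strand setting of the counting is not given in the sources used here.

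FBXO32 (atrogin-1), the substrate receptor of a ubiquitin ligase best known from muscle wasting, showed the largest rise of the 10 members after BEZ-235. It was at 2.25, 2.16 and 2.40 CPM in DMSO, at 19.4, 19.2 and 21.3 after BEZ-235, at 2.47, 2.34 and 2.51 after SAHA and at 11.6, 9.98 and 8.47 in the combination. The groups with BEZ-235 lay far above those without it, and the combination lay between. The change was 3.13 ± 0.14, or 8.77-fold, with BEZ-235 (adjusted p = 3.64e-11), and 77 genes of all tested rose by as much or more, FBXO32 included. With SAHA it was 0.09 ± 0.16 (adjusted p = 0.703), and with both 2.14 ± 0.15, or 4.4-fold (adjusted p = 2.45e-09). The combination was lower than BEZ-235 alone by -1.0 ± 0.12 (adjusted p = 4.48e-06, -0.78 after the GC correction).

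KLHL24, a kelch protein that serves as adaptor of a cullin ubiquitin ligase, followed the same order. It was at 47.3, 46.5 and 54.0 CPM in DMSO, at 132, 160 and 168 after BEZ-235, at 59.0, 54.7 and 57.8 after SAHA and at 79.2, 80.5 and 74.1 in the combination. No 2 of these 4 groups overlap. The change was 1.64 ± 0.09, or 3.11-fold, with BEZ-235 (adjusted p = 4.87e-10), 0.21 ± 0.09 with SAHA (adjusted p = 0.0733) and 0.66 ± 0.09 with both (adjusted p = 9.73e-06). The SAHA value passed without DMSO replicate 3 (0.28, adjusted p = 0.0344) and without BEZ-235 replicate 1 (0.21, adjusted p = 0.0373). It also passed with a mean CPM of at least 1 (0.23, adjusted p = 0.049) and in a fit of only those groups (0.22, adjusted p = 0.0429). KLHL24 has the lowest GC content of the members (36.69%), and the correction raised its combination change to 1.21 ± 0.06. The difference between combination and BEZ-235 alone was -0.98 before the correction and -0.37 after it.

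TXNIP, an arrestin-like protein that binds thioredoxin and limits glucose uptake, rose with each drug, and every SAHA library lay above every BEZ-235 library. It was at 196, 177 and 167 CPM in DMSO, at 270, 273 and 252 after BEZ-235, at 396, 374 and 348 after SAHA and at 443, 427 and 400 in the combination. The 4 groups do not overlap, and the highest SAHA library lies just below the lowest combination library. The change was 0.56 ± 0.08 with BEZ-235 (adjusted p = 2.85e-05), 1.05 ± 0.08, or 2.07-fold, with SAHA (adjusted p = 6.25e-08) and 1.23 ± 0.08 with both (adjusted p = 1.64e-09). After the GC correction the change with both was 1.44. Between combination and SAHA alone the difference was 0.19 (adjusted p = 0.0578), while the corrected value was 0.43 (adjusted p = 0.000135).

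SESN3, a sestrin that restrains mTOR complex 1 and supports antioxidant defence, was the 1 member that fell. It was at 260, 235 and 286 CPM in DMSO, at 192, 266 and 265 after BEZ-235, at 336, 308 and 333 after SAHA and at 105, 116 and 86.8 in the combination. The combination libraries lie below all others, the SAHA libraries above all others, and BEZ-235 overlaps DMSO. The change was -0.11 ± 0.13 with BEZ-235 (adjusted p = 0.491, 95% interval -0.37 to 0.16), 0.32 ± 0.12 with SAHA (adjusted p = 0.0471) and -1.34 ± 0.13, or 0.394 of DMSO, with both (adjusted p = 2.07e-07). SESN3 has a GC content of 37.13%. After the correction its combination change was -0.85 ± 0.07, and its BEZ-235 change of -0.19 passed (adjusted p = 0.0275).

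YPEL3, a small yippee-like protein known to slow growth, showed the largest rise of the 10 members in the combination before the GC correction. It was at 12, 12.3 and 10.3 CPM in DMSO, at 38.3, 37.3 and 32.9 after BEZ-235, at 17.0, 13.6 and 15.2 after SAHA and at 59.1, 68.4 and 71.6 in the combination. All 4 groups are separate, with SAHA just above DMSO. The change was 1.65 ± 0.11, or 3.14-fold, with BEZ-235 (adjusted p = 6.43e-09), 0.39 ± 0.12 with SAHA (adjusted p = 0.0117) and 2.53 ± 0.11, or 5.76-fold, with both (adjusted p = 1.95e-11). YPEL3 has the highest GC content of the members (57.24%), and the correction lowered the last value to 2.26, beside 2.27 for FBXO32.

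PIK3IP1, a membrane protein that binds the catalytic subunit of PI3K and restrains it, rose where BEZ-235 was present. It was at 14.1, 17.1 and 12.5 CPM in DMSO, at 24.8, 21.9 and 22.4 after BEZ-235, at 15, 14.4 and 14.2 after SAHA and at 17.6, 20.7 and 22 in the combination. The SAHA libraries lie within the DMSO range, and the combination libraries overlap those of BEZ-235. The change was 0.66 ± 0.12 with BEZ-235 (adjusted p = 0.000216), -0.00 ± 0.12 with SAHA (adjusted p = 0.995, 95% interval -0.25 to 0.25) and 0.47 ± 0.12 with both (adjusted p = 0.00266). After the GC correction the change with both was 0.35. The difference between combination and BEZ-235 alone was -0.19 (adjusted p = 0.17, 95% interval -0.44 to 0.05), while the corrected value was -0.32 (adjusted p = 0.0121).

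**Figure D3:**
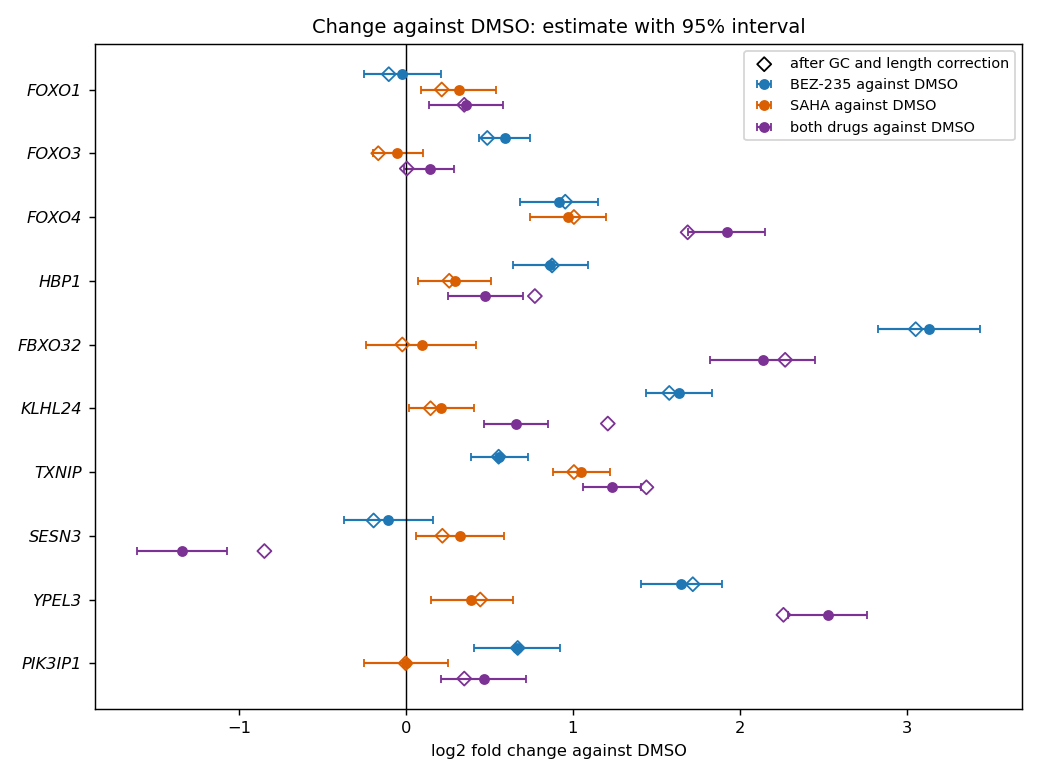
Log2 fold change against DMSO of each member after BEZ-235, SAHA or both, with 95% intervals, and the same after the GC and length correction (open diamonds, no interval). FBXO32 with BEZ-235 is farthest to the right at 3.13, and SESN3 with both drugs farthest to the left at -1.34.

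The smaller SAHA changes lay near the threshold, so that calls were lost on leaving out a library while the size of the change moved little. FOXO1 did not pass with SAHA when DMSO replicate 1 was left out, at an adjusted p of 0.0976, nor without DMSO replicate 2 (0.0574), SAHA replicate 1 (0.0669) or SAHA replicate 3 (0.0508), with log2 changes of 0.26 to 0.32 in these fits. The HBP1 call with SAHA was lost without DMSO replicate 1 (0.107), DMSO replicate 3 (0.0703) or any SAHA replicate (adjusted p of 0.0623, 0.0527 and 0.0937), with log2 changes of 0.26 to 0.32 against 0.29. SESN3 lost it without DMSO replicates 1 (0.108) or 2 (0.173), BEZ-235 replicate 2 (0.0512), any SAHA replicate (0.121, 0.0628 and 0.111) or combination replicate 1 (0.0597), with log2 changes of 0.25 to 0.36 against 0.32. YPEL3 lost it without DMSO replicate 3 (0.31, adjusted p = 0.0643). After the GC and length correction FOXO1 no longer passed with SAHA (0.21, adjusted p = 0.0579), while FOXO3 at -0.17 (adjusted p = 0.017) and KLHL24 at 0.15 (adjusted p = 0.0371) did. FOXO1 with SAHA was also lost without the low-count filter (adjusted p = 0.0504), and SESN3 with relative log expression scaling (adjusted p = 0.0525). FOXO4 and TXNIP, with changes of 0.97 and 1.05, kept the call whichever library was left out. In all, 6 of the 10 members were called with SAHA, and 3 to 7 of the 10 when a library was left out, with 3 without DMSO replicate 1, SAHA replicate 1 or SAHA replicate 3.

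Adding SAHA to BEZ-235 divided the members. Of the 10, 4 rose (FOXO1, FOXO4, TXNIP and YPEL3) and 5 fell (FOXO3, HBP1, FBXO32, KLHL24 and SESN3), where 58% of all genes were called, 29.5% higher and 28.5% lower. FOXO4 was higher by 1.01 (adjusted p = 5.74e-07), YPEL3 by 0.88 ± 0.10 (adjusted p = 3.03e-06, 0.54 after the GC correction) and TXNIP by 0.68 (adjusted p = 2.87e-06). Before the correction the largest difference was that of SESN3 at -1.23 ± 0.13 (adjusted p = 9.59e-07). After it SESN3 was at -0.65, and TXNIP (0.89), FBXO32 (-0.78) and FOXO4 (0.73) differed by more. Adding BEZ-235 to SAHA raised 6 members and lowered SESN3, where 58.8% of all genes were called, 29.9% higher and 28.9% lower. YPEL3 was higher by 2.13 ± 0.11 (adjusted p = 1.16e-10) and FBXO32 by 2.04 ± 0.14 (adjusted p = 4.15e-09), while SESN3 was lower by -1.67 ± 0.13 (adjusted p = 3.92e-08, -1.07 after the correction). KLHL24 was higher by 0.45 (adjusted p = 0.000493), and by 1.06 after the correction. FOXO1 differed by 0.05 (adjusted p = 0.724).

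The interaction asked whether the SAHA change with BEZ-235 present differed from the SAHA change without it. It is 0 where the log2 changes of both drugs add, and it passed for 7 of 10 members, 1 above and 6 below 0, where 38.4% of all genes were called, 18.9% above and 19.6% below. SESN3 was farthest below at -1.56 ± 0.18 (adjusted p = 4.79e-05): the single changes sum to 0.21 and the combination was at -1.34. KLHL24 was at -1.19 ± 0.13 (adjusted p = 2.44e-05), with a sum of 1.85 against 0.66. FBXO32 was at -1.09 ± 0.20 (adjusted p = 0.000749), with a sum of 3.23 against 2.14. These 3 genes thus had lower levels with both drugs than the sum of their log2 changes gives.

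HBP1 was at -0.68 ± 0.15 (adjusted p = 0.00212), FOXO3 at -0.40 ± 0.10 (adjusted p = 0.00574) and TXNIP at -0.37 ± 0.11 (adjusted p = 0.0172). YPEL3, the 1 member above 0, was at 0.49 ± 0.16 (adjusted p = 0.022). Its call was lost without DMSO replicate 1 (0.0651), DMSO replicate 2 (0.066), BEZ-235 replicate 3 (0.0679), SAHA replicate 2 (0.0772) or combination replicates 2 (0.0504) or 3 (0.0563), with values of 0.40 to 0.45 in these fits. FOXO4 at 0.03 (adjusted p = 0.883), FOXO1 at 0.07 (adjusted p = 0.754) and PIK3IP1 at -0.19 (adjusted p = 0.386) did not pass. After the GC and length correction 5 members were below 0 and none above, where 19.8% of all genes were called, 10.6% above and 9.15% below. SESN3 was then at -0.87 (adjusted p = 2.53e-05), FBXO32 at -0.76, KLHL24 at -0.52, HBP1 at -0.36 (adjusted p = 0.0156) and FOXO3 at -0.32. TXNIP at -0.12 (adjusted p = 0.476) and YPEL3 at 0.10 (adjusted p = 0.599) no longer passed.

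**Figure D4:**
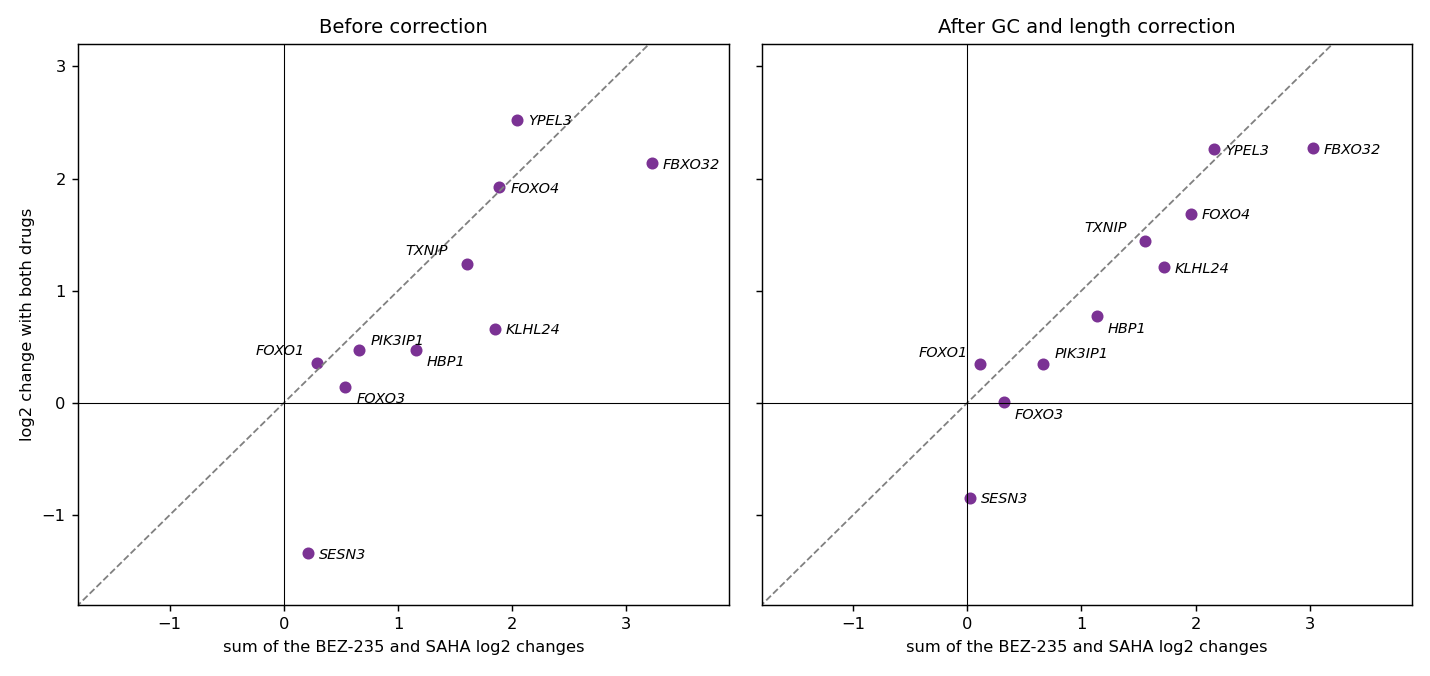
Log2 change of each member with both drugs (vertical) over the sum of its log2 changes with each drug alone (horizontal), before and after the GC and length correction; the dashed line marks equality. SESN3, KLHL24, FBXO32 and HBP1 lie below the line in both panels, and YPEL3 lies above it at 2.04 and 2.53 before the correction and near it at 2.16 and 2.26 after it.

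The members spanned a wide range of levels. In CPM per kilobase of the longest transcript in DMSO, TXNIP was highest at 61.5 ± 5.07 (SD, n = 3), followed by FOXO3 at 37.0 ± 2.52, SESN3 at 27.2 ± 2.68 and HBP1 at 22.1 ± 1.03. These 4 did not overlap with their neighbours in this order. KLHL24 at 6.68 ± 0.56 overlapped with YPEL3 at 5.95 ± 0.57, and YPEL3 with PIK3IP1 at 4.80 ± 0.77. FOXO1 at 2.09 ± 0.19, below PIK3IP1 in each DMSO library, overlapped with FOXO4 at 1.83 ± 0.19. FBXO32 was lowest at 0.337 ± 0.018, below every other member in each DMSO library. FOXO3 was thus the most abundant of the 3 chosen factor genes per length.

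Across the 12 libraries the levels of FOXO3 and KLHL24 were the most alike of any 2 members, with a Pearson r of log2 CPM of 0.96, followed by FBXO32 and KLHL24 with 0.94 and HBP1 and KLHL24 with 0.92. SESN3 and YPEL3 were the least alike, at -0.83. These are descriptions over 12 libraries that share 4 treatments, so any genes that respond to the same treatment correlate. Of the tested genes whose log2 CPM averaged at least 3, those most like HBP1 were ESD (0.978), ZNF658 (0.971), ANKRD13C (0.958), ZSCAN26 (0.957) and ZNF776 (0.954). For FBXO32 they were LETMD1 (0.995) and EIF4B (0.991), for KLHL24 ZNF776 (0.989) and CASC15 (0.988), for FOXO3 FAM161A (0.985) and CASC15 (0.979), and for YPEL3 ABTB1 and DLG4 (both 0.992). For SESN3 they were ROCK2 (0.988) and SUCO (0.986), for TXNIP STON1 (0.986) and DISP1 (0.985), and for FOXO4 LARP6 and AGAP1 (both 0.986). For FOXO1 they were TMEM179B (0.952) and NOMO3 (0.949), and for PIK3IP1 GPRC5C and DNAJC17 (both 0.961).

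A wider list of 39 known FOXO target genes was set beside the members, of which 30 were tested. Like the members, this list and those that follow were chosen with earlier results of these data known, so their counts are descriptions. With BEZ-235 11 rose and 4 fell (median 0.18), with SAHA 15 rose and 5 fell (median 0.22), and with both 17 rose and 4 fell (median 0.52, against 0.03 over all genes). Over all genes 25.5% rose and 25.4% fell with BEZ-235, 22.2% and 20.9% with SAHA, and 33.2% and 31.2% with both, and the counts of the lists that follow are read against the same shares. After the GC correction 14 genes of the wider list rose and 5 fell with BEZ-235, 15 and 6 with SAHA, and 20 and 4 with both. The corrected shares of all genes were 28% and 28.5%, 24.4% and 26%, and 34.2% and 31.7%. IRS2, an insulin receptor adaptor that feeds back to PI3K, rose by 1.07 ± 0.08 with BEZ-235 (adjusted p = 7.54e-09) and by 1.01 ± 0.08 with both (0.58 after the GC correction). BCL2L11, which encodes the death protein BIM, rose by 1.03 ± 0.07 with BEZ-235 (adjusted p = 1.04e-08). GABARAPL1, an autophagy gene, had mean levels of 4.70 CPM in DMSO, 14 after BEZ-235, 17.6 after SAHA and 34.1 in the combination, and its change with both was 2.86 ± 0.13 before and 2.86 after the correction. BCL6, a transcription repressor, rose with SAHA by 1.41 ± 0.17 and KLF2, a zinc-finger factor, fell by 1.64 (adjusted p = 6.83e-06). EIF4EBP1, a translation repressor inhibited by mTOR, fell in all 3 comparisons, by 0.93 with BEZ-235, 0.79 with SAHA and 0.78 with both (-0.48 and -1.30 after the correction for the last 2). CAT, which encodes catalase, fell by 0.42 with BEZ-235 and by 0.47 with both.

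**Figure D5:**
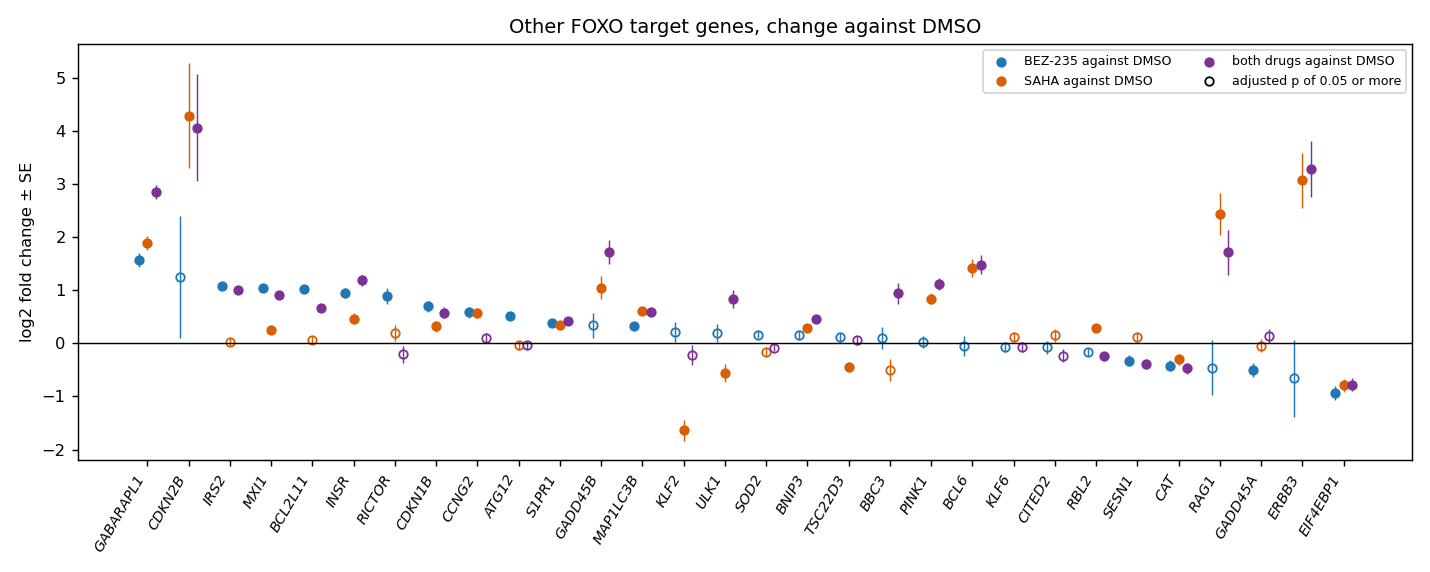
Log2 fold change against DMSO (± SE) of the 30 tested genes of the wider FOXO target list, ordered by the BEZ-235 change, with open points where the adjusted p was 0.05 or more. GABARAPL1 is high in all 3 comparisons, and EIF4EBP1 low in all 3.

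Upstream of FOXO, 21 of 22 PI3K-AKT pathway genes were tested, of which 10 rose and 7 fell with BEZ-235, 8 rose and 6 fell with SAHA, and 7 rose and 8 fell with both. With both drugs the counts are near the shares of all genes (33.2% higher and 31.2% lower), and after the GC correction 9 rose and 7 fell. The median change with both was -0.07, and 0.11 after the correction. PIK3R3, a regulatory subunit of PI3K, fell by 1.76 with BEZ-235 and by 1.47 with both, and PIK3R2, another, fell by 0.86 with BEZ-235 and by 0.41 with SAHA, the latter no longer called after the correction (-0.16, adjusted p = 0.081). The regulatory subunit gene PIK3R1 rose by 1.2 with SAHA. PIK3CD, the catalytic subunit best known from leukocytes, rose from a mean of 0.26 CPM in DMSO to 3.27 after SAHA and 8.13 in the combination, and its change with both was 4.97 (4.62 after the correction). RPTOR of mTOR complex 1 fell by 0.53 with SAHA, and MAPKAP1 of mTOR complex 2 by 0.41 with both.

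Of 18 genes for 14-3-3 proteins and enzymes that modify or export FOXO proteins, 17 were tested. With BEZ-235 5 rose and 8 fell, with SAHA none rose and 5 fell (1 and 8 after the correction), and with both 2 rose and 12 fell, with a median of -0.51 (3 rose, 12 fell and the median was -0.28 after the correction, where 34.2% of all genes were called higher and 31.7% lower). YWHAH, a 14-3-3 protein, fell by 1.2 with BEZ-235. SKP2, a ubiquitin ligase receptor that marks FOXO1 for breakdown, fell by 0.89 with BEZ-235 and by 1.21 with both (-0.83 after the correction). XPO1, the nuclear export receptor, fell by 1.55 with both (-1.06 after it). Of the deacetylases SIRT1 rose by 0.65 with BEZ-235, and SIRT2 by 0.55 with BEZ-235 and by 1.2 with both (0.81 after it). SIRT3 rose by 0.47 with both, which did not pass after the correction (0.17, adjusted p = 0.161). PRMT1, a methyltransferase, fell by 0.80 and CREBBP, an acetyltransferase, by 0.60 with SAHA.

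The list of HBP1 held genes it is known to repress and its binding partners, 14 of 15 tested. With BEZ-235 none rose and 6 fell, with SAHA 6 rose and 2 fell (6 and 4 after the correction), and with both 2 rose and 7 fell. Over all genes the shares were 25.5% and 25.4%, 22.2% and 20.9%, and 33.2% and 31.2%. DNMT1, the maintenance DNA methyltransferase, fell by 1.49 ± 0.07 with BEZ-235 (adjusted p = 1.22e-10), by 0.54 with SAHA and by 1.79 with both. EZH2, the methyltransferase of Polycomb, fell by 1.21 with BEZ-235 and by 1.46 with both. The corepressor genes SIN3A and HDAC1 rose with SAHA by 0.35 and 0.40 and with both by 0.35 and 0.58. MYCN changed by -0.04 with BEZ-235 (adjusted p = 0.756), -0.34 ± 0.10 with SAHA (adjusted p = 0.0104) and -0.42 with both (adjusted p = 0.0014, -0.69 after the correction). ALK, the receptor tyrosine kinase named with MYCN in the study's title, changed by 0.24 (adjusted p = 0.0383), -0.13 (adjusted p = 0.274) and 0.17 (adjusted p = 0.119) in the same order, and the last turned to -0.21 after the correction and was then called lower (adjusted p = 0.0274).

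Relatives of the members numbered 18, of which 17 were tested: 9 rose and 4 fell with BEZ-235, 4 rose and 3 fell with SAHA, and 11 rose and 4 fell with both. Over all genes the shares were 25.5% and 25.4%, 22.2% and 20.9%, and 33.2% and 31.2%, so the SAHA counts are near those of all genes. After the GC correction 11 relatives rose and 4 fell with BEZ-235, 5 and 4 with SAHA, and 9 and 5 with both. The corrected shares of all genes were 28% and 28.5%, 24.4% and 26%, and 34.2% and 31.7%. Other yippee-like genes also rose, with YPEL2 at 1.54 and YPEL5 at 0.87 after BEZ-235 and YPEL5 at 0.86 after SAHA. In the combination YPEL2 was at 1.78 and YPEL4 at 1.94. Their patterns were not all that of YPEL3. YPEL5 had mean levels of 1411 CPM in DMSO, 2569 after BEZ-235, 2564 after SAHA and 2659 in the combination. YPEL3 was at 11.5, 36.2, 15.3 and 66.4 CPM in the same order. After the GC correction YPEL5 changed by 0.89 with BEZ-235, 0.85 with SAHA and 1.36 with both. It was then higher in the combination than with BEZ-235 alone (0.47, adjusted p = 5.94e-06) and SAHA alone (0.52, adjusted p = 2.1e-06). The sestrin gene SESN2 fell by 1.40 with BEZ-235 and by 0.39 with SAHA, where the SESN3 values were -0.11 and 0.32. ARRDC4, an arrestin-domain relative of TXNIP, rose by 1.24 with SAHA as TXNIP did. TXN, the thioredoxin that TXNIP binds, fell by 0.84 with both drugs (-0.66 after the correction). The kelch gene KLHL25 fell by 1.04 with BEZ-235, and KLHL42 fell by 0.75 with SAHA and by 0.52 with both.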

How the data were processed

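Polyadenylated RNA of NB-1 cells was sequenced in 12 stranded libraries. Reads were aligned with STAR and counted with RSEM on hg38, per the submitters' processing notes. Not given in the sources used here are versions, annotation and strand setting. The authors deposited expected counts (estimated read counts per gene, not scaled for depth or length) for 58051 genes. These were rounded to whole counts and named from GENCODE release 29. The members and gene lists were chosen with earlier results of these data known. Treatment labels gave the groups.

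One model with 4 group means was fitted to the 12 libraries in edgeR 4.0.16 (R 4.3.3), with TMM scaling, filterByExpr (17774 genes kept) and the robust quasi-likelihood test. The threshold was 0.05 for 2-sided p-values adjusted by Benjamini-Hochberg. Levels are CPM with TMM factors of 0.981 to 1.028. The fit was tested on simulated counts for BEZ-235 against DMSO only. They held no GC slope, so this test does not cover the combination or the interaction. The spread between replicates (biological coefficient of variation 10.6%) and the depth of 17662944 to 79543539 counts set the precision. Alternatives were DESeq2 1.42.0, scaling by relative log expression, no low-count filter, a mean CPM of at least 1, unrounded counts, a replicate block, a spline correction for GC content and length of the longest transcript (5 degrees of freedom), both together, a fit to the compared groups alone, and leaving out each library. Named genes were all members, MYCN and ALK, up to 2 called genes per direction with the smallest p from each list and comparison against DMSO, and for each member the 2 (HBP1: 5) most correlated genes with a standard symbol; FOXO6 and the gene copies and overlapping genes were named for their kinship or position. One gene that this rule picks is not reported here. The reported fit did not pair libraries by their deposited number. Of 18 pairs with the same number, 3 correlated over 0.1 in their deviations from group means (range -0.287 to 0.213). Such weak correlations cannot show that libraries were not handled in matched sets.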

Additional observations from a re-analysis of the deposited data

Results flagged for a closer look

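For 7 members the change with SAHA differed with and without BEZ-235 by the interaction test of edgeR, which is what marked them for a closer look. The interaction was -0.397 for FOXO3 (adjusted p = 0.00574), -0.682 for HBP1 (adjusted p = 0.00212) and -1.089 for FBXO32 (adjusted p = 0.000749). It was -1.189 for KLHL24 (adjusted p = 2.44e-05), -0.372 for TXNIP (adjusted p = 0.0172), -1.556 for SESN3 (adjusted p = 4.79e-05) and 0.486 for YPEL3 (adjusted p = 0.022). After the GC and length correction the values for TXNIP and YPEL3 no longer passed, and the other 5 did. The rise of the GC slope in the combination libraries moves with these values, and its part in them was not tested beyond this correction.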

How the results depend on the processing

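Of 1250 alternative values for single members, 1158 kept direction and call, 50 lost the call, 17 gained it and 25 changed sign. All sign changes were of values that did not pass in the reported fit. With a library left out, the ranges were -0.088 to 0.039 for FOXO1 and -0.204 to 0.011 for SESN3 with BEZ-235, -0.107 to 0.13 for PIK3IP1 with SAHA, -0.01 to 0.061 for FOXO1 and 0 to 0.238 for HBP1 between combination and SAHA, and -0.048 to 0.095 for FOXO4 and -0.017 to 0.11 for FOXO1 in the interaction. PIK3IP1 with SAHA was at 0.016 without a filter, 0.019 with a mean CPM of at least 1, 0.009 with only the groups compared and 0.001 with the replicate block. Without a filter FOXO1 between combination and SAHA was at -0.029, and the FOXO4 interaction at -0.01. After the GC correction the FOXO4 interaction was at -0.273 (-0.273 with the block too) and FBXO32 with SAHA at -0.022 (-0.015 with the block too). Members called with SAHA numbered 3 to 7 with a library left out. The interaction called 3492 genes after the GC correction and 3064 with the block too, against 6834. The replicate block lost the calls of HBP1 with SAHA (adjusted p = 0.0539), SESN3 with SAHA (0.0677) and FOXO3 between combination and SAHA (0.0507), and 1 of 12 libraries correlated best with its own number. The causes were not tested. Depth limits FBXO32 most, with 43 counts in its lowest library.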
